A study of Homo sapiens with 78 samples.

Results

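The 10 long noncoding genes SNHG1, SNHG5, SNHG6, SNHG8, SNHG12, SNHG15, SNHG16, SNHG29, GAS5 and ZFAS1 carry small nucleolar RNAs (snoRNAs) in their introns. They were chosen by name, and their 156 transcripts were summed to genes among the 62745 genes quantified. Their levels and their use of spliced and intron-retaining transcripts were described in 2 human cell lines sequenced cell by cell, the melanoma line A375 and the T cell leukemia line Jurkat. Live cells were sorted by FACS, A375 cells by CD47 staining into PBS and Jurkat cells by CD81 staining into a lysis solution. Total RNA libraries were made in parallel with a SMARTer Stranded Pico Input kit (#634413) or the SMART-Seq Stranded Kit (#634444). The data cover 21 A375 wells and 18 Jurkat wells per kit, 78 wells in all. No cells were treated. A375 cells were grown in DMEM and Jurkat cells in RPMI medium. Medium, stain and sort buffer differed with the cell line in every well, so cell line cannot be told apart from them. The labels name no culture behind the cells. Each cell line and kit was therefore taken as 1 sample whose wells show the spread between cells, and no p-value is given.

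SnoRNAs guide the chemical modification of ribosomal RNA and other RNAs, box C/D snoRNAs (SNORD genes) for ribose methylation and H/ACA snoRNAs (SNORA genes) for pseudouridylation. In human cells most of them are cut out of introns of a host transcript after splicing. Several noncoding hosts begin with a terminal oligopyrimidine tract, the element that ties messenger RNAs of ribosomal proteins to growth signals, and their spliced RNA is known to be degraded by nonsense-mediated decay. GAS5 was named for its accumulation in growth-arrested cells.

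The wells held between 909 and 2567265 estimated counts, with group medians from 658192 to 926941. All 9 wells under 25% of the overall median were A375 wells, 4 of kit #634413 and 5 of kit #634444. Some values are therefore also given over the 69 deeper wells. All other medians and ranges of A375 wells include these 9 wells. The summed level of 12 T cell markers lay between 1157 and 3698 CPM (counts scaled to a common total per well) in Jurkat wells and between 0 and 44.7 CPM in A375 wells. The summed level of 12 melanoma line markers lay between 0 and 3456 CPM in A375 wells and between 7.25 and 382 CPM in Jurkat wells. The pigment genes PMEL and MLANA, with S100B and CAV1, had too few counts to be fitted with either kit, and PRAME was the only fitted melanoma marker that was not at least 2-fold higher in A375.

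The first bases of a transcript of a host show whether it opens with a pyrimidine tract, as a C followed by 4 pyrimidines. This motif was searched at the first base of transcripts on their own strand in GENCODE v44 and the GRCh38 genome. The transcript examined for each member held the largest share of its TPM in any group. Only those of SNHG5, SNHG16 and SNHG29 led in every group. SNHG12-202 led in A375 wells and not in Jurkat, and SNHG1-218 led in Jurkat wells of kit #634413 alone. GAS5-221 held 5.93% in Jurkat wells of kit #634413, against 16.4% for GAS5-205. SNHG6 was not examined here. The motif opened the examined transcripts of GAS5, ZFAS1 and SNHG12, 3 of the 9 members examined. In any of their transcripts 8 of the 9 members had it, SNHG1 in 1 of 25. Below are the starts of these 3 examined transcripts and, for contrast, the start of SNHG1-218, whose run is shorter. Capitals mark the unbroken pyrimidines from the first base.
GAS5-221, chr1:173867970-173867989, minus strand: CTTTTCgaggtaggagtcga
ZFAS1-201, chr20:49278642-49278661, plus strand: CTTTCgcgtctgcggtgccc
SNHG12-202, chr1:28581854-28581873, minus strand: CCTTTCTCCCCgccgcattc
SNHG1-218, chr11:62855469-62855488, minus strand: CTTattgggctcctgtctgc
Over the 151 transcripts of these 9 members, 36 or 23.8% began with the motif, against 2.61% of 252814 annotated transcripts. Transcripts of 1 gene share start sites, and 14 of the 36 belonged to SNHG29 and 11 to GAS5. A match describes the letters of the annotated start only. The start in GENCODE v44 can differ from that of the quantified target, and SNHG12-202 has 1082 bases in v44 and 675 as quantified.

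Together the 10 hosts held a median of 1059 CPM in A375 wells of kit #634413 and 578 CPM in Jurkat wells of that kit. With kit #634444 the medians were 1296 CPM and 756 CPM. Single A375 wells ranged from 0 to 1690 CPM and from 0 to 2402 CPM for the 2 kits. Single Jurkat wells ranged from 287 to 1039 CPM and from 340.0 to 1265 CPM. All A375 wells at 0 were among the near-empty ones, since the deeper A375 wells began at 260.4 CPM with kit #634413 and at 1054 CPM with kit #634444. The well at 260.4 CPM had only 10.5% of its counts on protein coding genes and 48.5% on the ribosomal DNA repeat.

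Per transcript length, as TPM, the order of the hosts differed between the lines. In A375 wells of kit #634444 the medians were 512 TPM for GAS5, 278 for SNHG29, 265 for SNHG6, 146 for ZFAS1, 113 for SNHG8, 89.9 for SNHG5, 57.6 for SNHG16, 38.1 for SNHG1, 29.4 for SNHG12 and 2.14 for SNHG15. In Jurkat wells of the same kit SNHG29 led with a median of 144 TPM, ahead of GAS5 with 115 TPM. They were followed by SNHG6 with 91.9 TPM, SNHG5 with 89.1 TPM, SNHG1 with 61.8 TPM, ZFAS1 with 51.8 TPM, SNHG8 with 50.5 TPM, SNHG16 with 46.6 TPM, SNHG12 with 22.8 TPM and SNHG15 with 14.1 TPM. The ranges over wells overlapped between all neighbours in both orders. Over deeper A375 wells of kit #634444 SNHG6, with a median of 477 TPM, stood above SNHG29 with 320 TPM. GAS5 reached from 1.88 to 277 TPM in Jurkat wells and from 0 to 945 TPM in A375 wells.

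**Figure D1:**
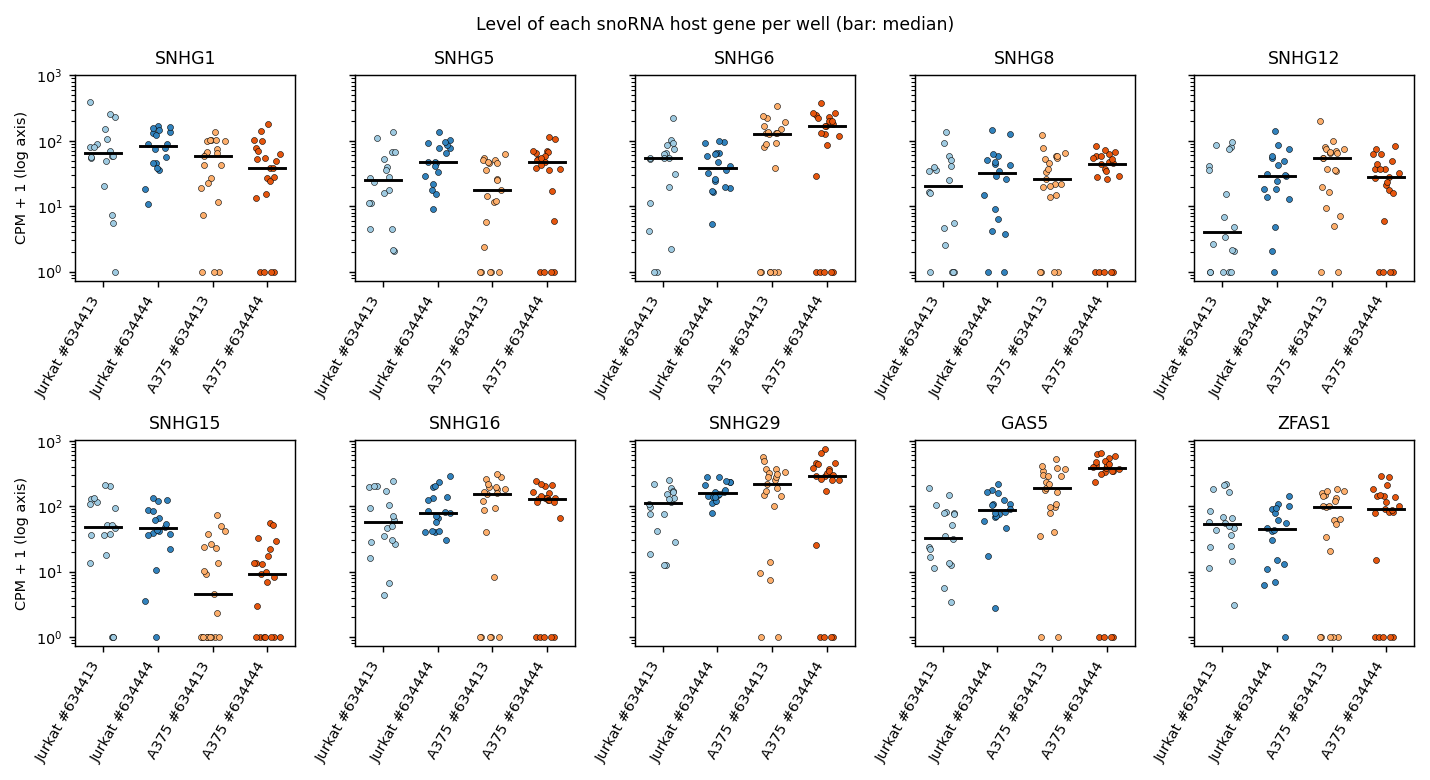
Level of each host gene in every well, as CPM + 1 on a log axis, for the 4 groups of wells, with a bar at the median. With kit #634444, 17 of 21 A375 wells of GAS5 sit above the highest Jurkat well at 219.0 CPM, and for SNHG15 2 of 21 A375 wells of each kit sit above the Jurkat median.

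With both kits GAS5 and SNHG6 were higher in A375 than in Jurkat and SNHG15 was lower. A difference of at least 2-fold in the edgeR fit was taken as past the threshold. With kit #634413 this held for SNHG6, SNHG12, SNHG29 and GAS5, which were higher in A375, and for SNHG15, which was lower. The 5 of 10 members compare with 48.4% of the 11171 genes fitted, 23.2% higher and 25.2% lower. With kit #634444 SNHG6, GAS5 and ZFAS1 were higher and SNHG15 was lower, 4 of 10 members against 47.1% of 12258 genes, 21.2% higher and 25.9% lower. The count of members was thus near the background of these very different lines. The median log2 fold change over the members was 0.52 and 0.21, beside -0.13 and -0.22 over all genes fitted. That median over all genes depends on the scaling and was 0.10 and 0.07 with counts on protein coding genes as the library size.

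GAS5 (ENSG00000234741, chr1:173858559-173868882, minus strand, hg38) holds 11 snoRNAs. With kit #634413 it had a lowest, median and highest level of 0, 185 and 520 CPM in A375 wells and of 2.42, 31.8 and 189 CPM in Jurkat wells. Of the 21 A375 wells, 19 lay above the Jurkat median and 10 above the highest Jurkat well. With kit #634444 the values were 0, 381 and 644 CPM in A375 and 1.78, 85.04 and 219.0 CPM in Jurkat. Here 17 of 21 A375 wells lay above the highest Jurkat well, and the 16 deeper A375 wells, from 310.4 to 644 CPM, did not overlap with the Jurkat wells. With kit #634413 the mean was 206 ± 148 CPM (SD, n = 21) in A375 against 53.5 ± 52.3 CPM (SD, n = 18) in Jurkat. With kit #634444 the mean was 352 ± 203 CPM (SD, n = 21) against 96.6 ± 55.9 CPM (SD, n = 18). The log2 fold change was 2.15, or 4.44-fold, with kit #634413 and 2.0, or 3.99-fold, with kit #634444. Over the other settings it lay between 1.79 and 2.74 and between 0.83 and 2.65. Summed over wells, GAS5 held 278 CPM (95% Poisson interval 270.6 to 286) in A375 and 52.5 CPM (49.2 to 55.9) in Jurkat with kit #634413. These intervals cover counting error only, because reads without molecular identifiers are not independent molecules.

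SNHG15 (chr7:44983019-44986961, minus strand), the host of the H/ACA snoRNA SNORA9, was the only member at least 2-fold lower in A375 with both kits. With kit #634413 its lowest, median and highest levels were 0, 3.59 and 71.8 CPM in A375 and 0, 47.6 and 211 CPM in Jurkat. With kit #634444 they were 0, 8.24 and 53.7 CPM in A375 and 0, 44.6 and 134 CPM in Jurkat. Only 2 of 21 A375 wells lay above the Jurkat median with each kit, and 7 Jurkat wells lay above the highest A375 well with each kit. The log2 fold change was -2.0 with kit #634413 and -1.90 with kit #634444, and stayed between -2.25 and -1.54 over the other settings of both kits. The level was at 0 in many A375 wells, and at least 1 count was present in 12 and 14 of 21 A375 wells, against 15 and 17 of 18 Jurkat wells. Some of these A375 wells were near-empty. Among deeper A375 wells 11 of 17 and 13 of 16 had at least 1 count, with medians of 8.26 and 10.5 CPM.

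SNHG6 (chr8:66920561-66926398, minus strand), the host of SNORD87, had a median of 128 CPM in A375 and 53.7 CPM in Jurkat with kit #634413, with highest wells at 342 and 225 CPM. With kit #634444 the medians were 166 and 37.8 CPM, and 14 of 21 A375 wells lay above the highest Jurkat well at 97.2 CPM. The log2 fold change was 1.12 and 1.75, with 0.51 to 1.90 and 0.22 to 2.23 over the other settings. The lowest values came from the fit of TPM in which near-empty A375 wells count as 0.

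SNHG29 (chr17:16438767-16480249, plus strand), the host of SNORD49A, SNORD49B and SNORD65, had the highest median TPM of the 10 members in Jurkat with both kits, 103.7 and 144 TPM. Its lowest, median and highest levels with kit #634413 were 0, 216 and 565 CPM in A375 and 11.4, 110.5 and 248 CPM in Jurkat. With kit #634444 they were 0, 290 and 741 CPM in A375 and 77.2, 157 and 282 CPM in Jurkat. In A375 10 and 12 of 21 wells lay above the highest Jurkat well. The log2 fold change was 1.17 with kit #634413, with 0.40 to 1.59 over the other settings. It was 0.84 with kit #634444, where it ran from -0.72 in the TPM fit over all wells to 1.163 in the deeper wells.

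SNHG12 (chr1:28578538-28583132, minus strand), the host of SNORA16A, SNORA44, SNORA61 and SNORD99, was past 2-fold with 1 kit only. With kit #634413 its lowest, median and highest levels were 0, 53.6 and 202 CPM in A375 and 0, 3.06 and 94.2 CPM in Jurkat, and 19 of 21 A375 wells lay above the Jurkat median. With kit #634444 they were 0, 27.1 and 83.0 CPM in A375 and 0, 28.5 and 139 CPM in Jurkat, and the groups overlapped. Over deeper A375 wells of kit #634444 the median was 35.9 CPM, above that of Jurkat. The log2 fold change was 2.02 with kit #634413 and -0.08 with kit #634444. The 2 highest A375 wells of kit #634413, at 202 and 99.0 CPM, had 231540 and 278552 counts, of which 4.84% and 10.5% fell on protein coding genes and 53.4% and 48.5% on the ribosomal DNA repeat. With wells of at least 50% protein coding counts the log2 fold change was 0.86. The difference between the kits' cell line differences was -1.98 on the log2 scale for SNHG12, and -0.88 in the wells of at least 50% protein coding counts. SNHG12 was the only member past 2-fold in this interaction, in which 25.5% of 11610 genes were, 10.1% above 0 and 15.4% below.

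ZFAS1 (chr20:49278178-49299600, plus strand), the host of SNORD12, SNORD12B and SNORD12C, had medians of 94.9 and 87.9 CPM in A375, first with kit #634413 and then with kit #634444, and of 51.7 and 43.6 CPM in Jurkat. Its log2 fold change was 0.29 with kit #634413, with -0.54 to 0.66 over the other settings, and 1.10 with kit #634444, with 0.24 to 2.02. The lowest value of each kit came from the TPM fit over all wells, which lost the 2-fold difference with kit #634444 and turned the sign with kit #634413. SNHG16 (chr17:76557727-76670985, plus strand), the host of SNORD1A, SNORD1B and SNORD1C, had medians of 151 and 129 CPM in A375 and 55.3 and 78.8 CPM in Jurkat, with log2 fold changes of 0.67 and 0.25. These changed sign over the other settings, from -0.20 to 1.08 and from -0.52 to 0.96. SNHG8 (chr4:118278703-118285316, plus strand), the host of SNORA24, had medians of 24.9 and 43.95 CPM in A375 and 19.7 and 31.1 CPM in Jurkat. Its log2 fold changes of 0.37 and 0.16 rose to 1.82 and 2.11 in the fit of TPM in deeper wells.

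SNHG1 and SNHG5 had fitted values below 0 in both kits. SNHG1 (chr11:62851978-62855953, minus strand), the host of SNORD22 and SNORD25 to SNORD31, had medians of 57.2 and 37.7 CPM in A375 and 63.2 and 81.95 CPM in Jurkat, with log2 fold changes of -0.56 and -0.63. SNHG5 (chr6:85650491-85678932, minus strand), the host of SNORD50A and SNORD50B, had medians of 16.4 and 47.2 CPM in A375 and 24.3 and 46.3 CPM in Jurkat. Over deeper A375 wells its medians were 25.3 and 52.4 CPM, above those of Jurkat. Its log2 fold changes of -0.35 and -0.20 changed sign over the other settings, from -0.56 to 0.50 and from -1.002 to 0.38. The annotated spans of SNHG5, SNHG16 and ZFAS1 overlap those of other genes on their own strand. Whether exons overlap too, so that reads could be split, was not examined.

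**Figure D2:**
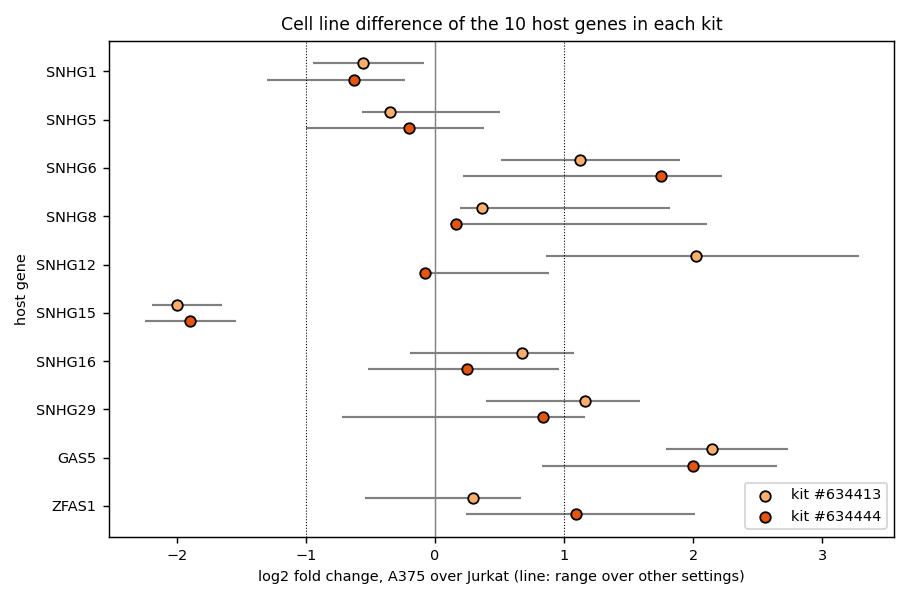
Log2 fold change of each host gene, A375 over Jurkat, for kit #634413 (light) and kit #634444 (dark), with grey lines for the range over the other settings and dotted lines at 2-fold. GAS5 lies near 2 and SNHG15 near -2 with both kits, while SNHG12 lies at 2.02 with 1 kit and at -0.08 with the other.

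Between the kits the levels of most hosts differed by less than 2-fold. In A375 only SNHG12 was past this threshold, lower with kit #634444 by a log2 fold change of -1.52, and 9.32% of 12096 genes were past it, 4.21% higher and 5.11% lower. Without wells under 50% protein coding counts the value was -0.26. SNHG5 and GAS5 followed with 0.87 and 0.73. In Jurkat no member was past 2-fold, against 13.9% of 10625 genes, 7.98% higher and 5.91% lower. The largest values were 0.83 for GAS5, 0.68 for SNHG5, 0.64 for SNHG29 and 0.59 for SNHG12, all higher with kit #634444.

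Intron retention was described from the annotated type of each transcript. Of the 156 transcripts 43 were annotated as retained intron, in 7 of the 10 members, and 19 of them belonged to GAS5, 11 to SNHG1 and 7 to SNHG12. SNHG8, SNHG15 and ZFAS1 had none. Reads from unspliced precursor RNA and from mature RNA with a retained intron cannot be told apart in these counts. Of the 39 snoRNA annotations inside the members, 25 were matched to a target of their own through a GENCODE v44 gene. The 11 in GAS5 came from RefSeq alone and so could not be matched in this way. Targets absent from GENCODE v44 were not searched for them. Reads of free GAS5 snoRNAs may therefore be mixed with reads of its retained introns, which was not tested.

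The 2 forms differ at the intron borders, shown here for 1 snoRNA-holding intron in each of 4 hosts. Exon bases are in capitals and intron bases in lower case, 12 bases on each side, on the transcribed strand of GRCh38. The first line of each gene is the spliced junction, and the next lines are the borders that a transcript keeping the intron holds.
GAS5 spliced (GAS5-221, intron chr1:173865283-173865470, 188 bases with SNORD79): TACCTTTTAAAGGTATGGAGAGTC
GAS5 retained, exon into intron (GAS5-214): TACCTTTTAAAGgtacatgtttta
GAS5 retained, intron into exon (GAS5-214): aaatttctacagGTATGGAGAGTC
SNHG1 spliced (SNHG1-218, intron chr11:62852840-62853074, 235 bases with SNORD22): CTGAAGTTACAGGTCTGAGCAAAT
SNHG1 retained, exon into intron (SNHG1-209): CTGAAGTTACAGgtgagtaaacct
SNHG1 retained, intron into exon (SNHG1-209): tattttttccagGTCTGAGCAAAT
SNHG15 spliced (SNHG15-201, intron chr7:44984047-44986524, 2478 bases with SNORA9): TCCTGAGCCCAGTGTCCATGAAAC
SNHG15 kept, exon into intron (SNHG15-202): TCCTGAGCCCAGgtaggggtcctg
SNHG15 kept, intron into exon (SNHG15-202): attttctaccagTGTCCATGAAAC
ZFAS1 spliced (ZFAS1-204, intron chr20:49280571-49280902, 332 bases with SNORD12): CATATAAAATTGGTTGGGAGCCAC
ZFAS1 kept, exon into intron (ZFAS1-210): CATATAAAATTGgtaagtggtgcc
ZFAS1 kept, intron into exon (ZFAS1-210): aactttctatagGTTGGGAGCCAC
All 4 introns begin with gt and end with ag, the usual splice site letters. SNHG15-202 and ZFAS1-210 keep an intron but are annotated as plain long noncoding transcripts.

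**Figure D3:**
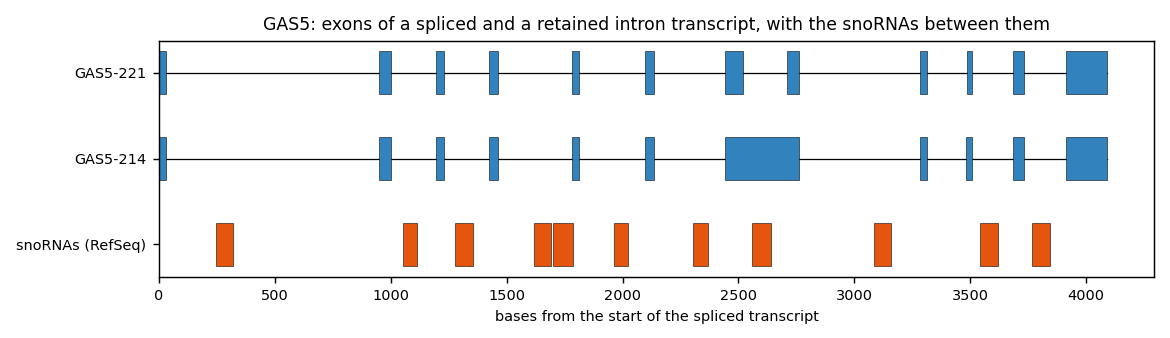
Exons (blue) of the spliced transcript GAS5-221 (12 exons) and the retained intron transcript GAS5-214 (11 exons), with the 11 snoRNAs of RefSeq (orange), in bases from the start of the spliced transcript. The snoRNAs lie between exons of GAS5-221, except for SNORA103, whose end overlaps an exon by 2 bases, and SNORD79 lies inside the wide exon of GAS5-214.

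SNHG12, SNHG1 and GAS5 had most of their counts on retained intron transcripts in all 4 groups, and the other 4 hosts did not. Over summed counts, SNHG12 had 83.0% to 90.4% of its counts on retained intron transcripts over the 4 groups, SNHG1 59.8% to 75.3% and GAS5 55.6% to 65.6%. SNHG29 had 9.64% to 14.7%, SNHG5 6.19% to 15.3%, and SNHG16 0.811% to 7.77%. SNHG6 had 3.58% to 29.1%. Wells differed widely, with GAS5 shares from 5.63% to 100% and SNHG1 shares from 4.15% to 100% over wells with at least 10 counts of the gene.

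For GAS5 the share was 55.6% (95% Clopper-Pearson interval 54.2% to 56.97%) in A375 and 56.9% (53.7% to 60.1%) in Jurkat with kit #634413. With kit #634444 it was 64.04% (62.9% to 65.2%) in A375 and 65.6% (63% to 68.04%) in Jurkat. These intervals cover counting error only, and the shares of single wells ran from 5.63% to 100%. The median well was at 54.01% in A375 and 37.4% in Jurkat with kit #634413, and at 66.2% and 65.4% with the other kit. The difference of the mean shares of wells was 13.4 percentage points with kit #634413, and between 2.33 and 14.8 over the other settings.

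SNHG6 was the only member past 20 percentage points between the lines with kit #634413, where 22.1% of 3832 genes were, 9.39% with a higher and 12.7% with a lower share in A375. Its share of summed counts was 4.32% (3.56% to 5.17%) in A375 and 29.1% (26.1% to 32.2%) in Jurkat. The mean share of wells was lower in A375 by 34.1 points, and by 25.2 to 35.4 points over the other settings. Of the 13 Jurkat wells with at least 10 counts, 3 were at 100%, 3 lay between 61.8% and 73.8% and 7 were at 0. The 15 A375 wells lay between 0 and 30.3%. The Jurkat wells thus spread over the whole scale, at 26 to 149 counts of SNHG6 per well. With kit #634444 the shares were 3.58% and 10.5%, and no member was past 20 points, against 16.5% of 3873 genes, 7.82% higher and 8.68% lower in A375. SNHG6 was not among the genes compared there, since under 5% of its counts fell on the retained intron transcript. SNHG16 was likewise not compared between the lines with kit #634413.

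Between the kits in Jurkat, SNHG1 was the only member past 20 points, with a mean share higher by 22.7 points with kit #634444, and 20.5% of 3765 genes were past it, 6.61% higher and 13.9% lower. The median well was at 37.8% with kit #634413 and 78.1% with kit #634444. With counts summed over wells the shares were 67.3% (65.2% to 69.4%) and 75.3% (72.8% to 77.7%). The 2 wells of kit #634413 with the most SNHG1 counts, 500 and 358, had shares of 82.8% and 98.7%. With counts summed over blocks of 8 neighbouring index numbers the difference was 9.44 points. In A375 no member was past 20 points between the kits, against 11.2% of 3980 genes, 3.97% higher and 7.26% lower with kit #634444. SNHG1 had 10.8 points. Between the kits SNHG16 was not among the genes compared in either line, and SNHG6 was not in A375.

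**Figure D4:**
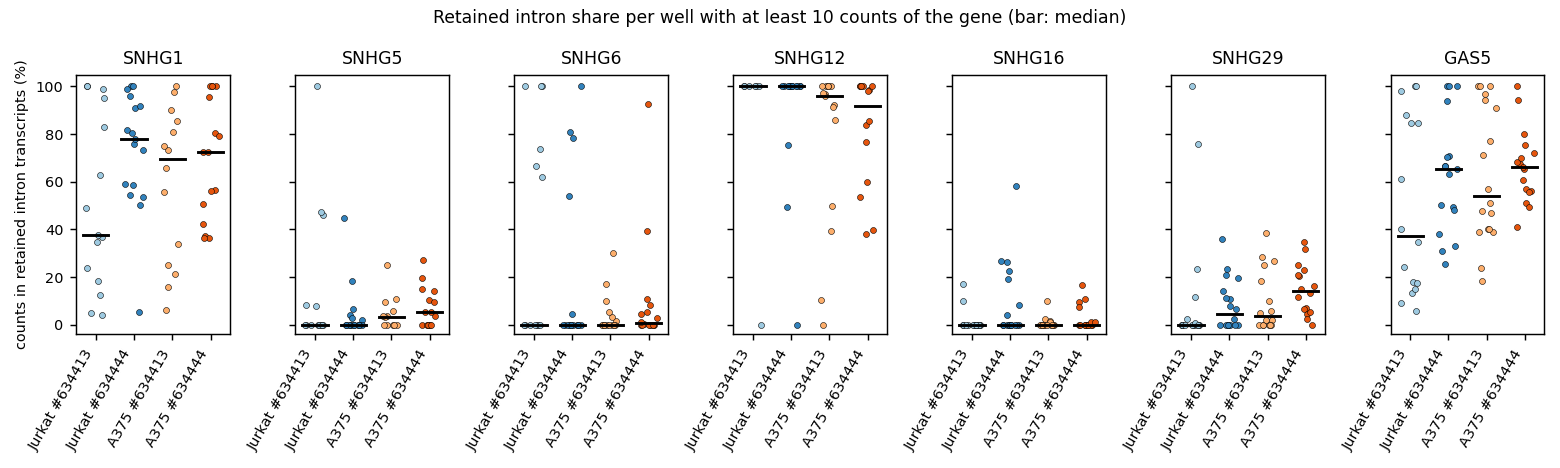
Share of counts on retained intron transcripts in each well with at least 10 counts of the gene, for the 7 hosts that have such transcripts, with a bar at the median. SNHG12 wells cluster near 100%, GAS5 and SNHG1 wells spread over the whole axis, and SNHG6 has 3 Jurkat wells of kit #634413 at 100% beside 7 at 0.

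For the 3 hosts without annotated retained intron transcripts, counts on transcripts with an exon holding a snoRNA were used instead. The exons were those of GENCODE v44 and can differ from the quantified target. SNHG15-206, with 12.6% of SNHG15 counts in Jurkat of kit #634444, has 2998 bases in v44 and 1073 as quantified. SNHG8-204, which holds SNORA24, had 10.4% (8.47% to 12.7%) of the counts of SNHG8 in A375 and 28.6% (24.7% to 32.4%) in Jurkat with kit #634413, and 15.2% (12.7% to 18.02%) and 22.6% (19.2% to 26.4%) with kit #634444. For SNHG15 such transcripts had 49.2% and 56.4% of counts with kit #634413 and 70.98% and 47.02% with kit #634444, in A375 and Jurkat. Of SNHG15 summed TPM they had less, 13.3% and 24.4% with kit #634413 and 42.8% and 20.8% with kit #634444. For ZFAS1 such transcripts had 10.4% and 10.2% of counts with kit #634413 and 7.88% and 18.96% with kit #634444. The medians over wells with kit #634444 had the other order of the lines, 13.2% in A375 and 10.7% in Jurkat for SNHG8 and 77.98% and 91.8% for SNHG15. Between 7 and 17 wells per group had at least 10 counts of these genes.

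For SNHG5, SNHG16 and SNHG29 the same transcript led in TPM in every group. In each of the other hosts the leading transcript changed between groups. GAS5-221, the spliced 12-exon form, held 22.9% of GAS5 TPM in A375 and 5.93% in Jurkat with kit #634413, and 23.5% and 12.4% with the other kit. SNHG5-202 led in all groups, with 70.4% and 80.9% in A375 and 37% and 62.02% in Jurkat. SNHG29-221 held 25.01% and 27.6% in A375 and 52.8% and 37.2% in Jurkat, while SNHG29-210 held 17.6% and 25.2% in A375 and 2.91% and 9.05% in Jurkat. SNHG12-202, a retained intron transcript, held 48.02% in A375 of kit #634413 and 5.11% to 16.6% in the other groups. SNHG16-206 had similar shares throughout, from 42.98% to 52.8%. These shares are estimates from reads that transcripts share, and for 56 of the 156 transcripts, with 27.8% of the members' counts, the GENCODE v44 model differed from the quantified target by more than 10% in length.

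**Figure D5:**
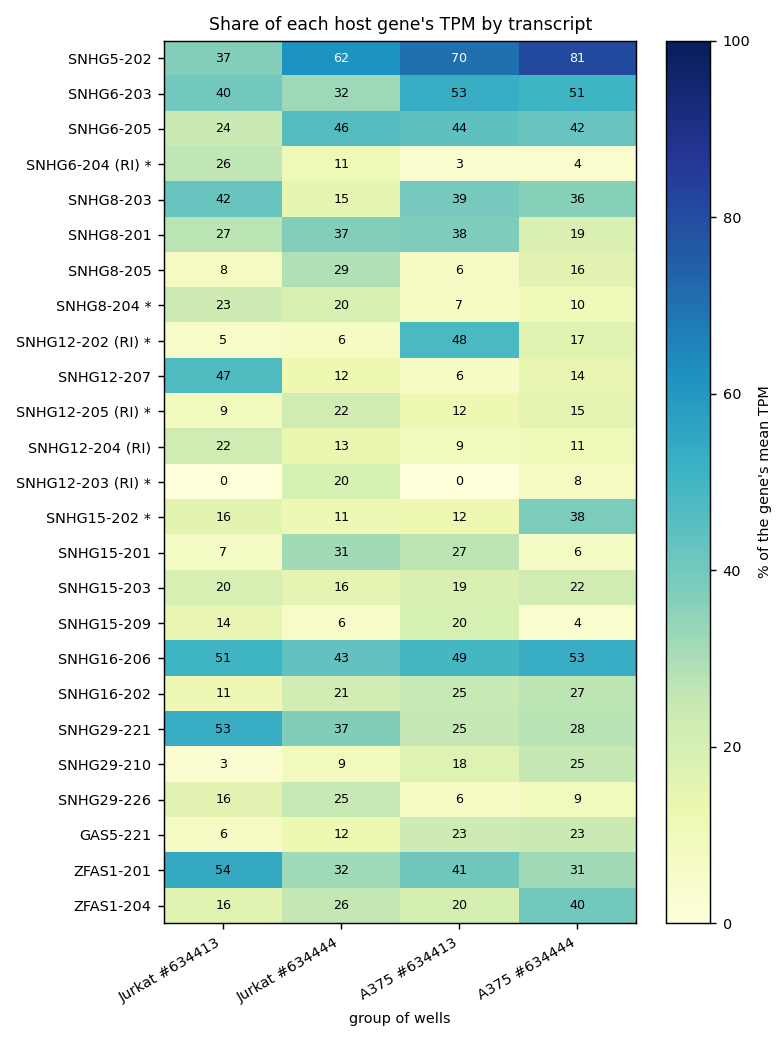
Share of each host gene's TPM held by its transcripts, for those with at least 20% in any group, in percent by colour and printed value; (RI) marks retained intron transcripts and * an exon that holds a snoRNA. SNHG5-202 leads SNHG5 in all 4 groups. With kit #634413 SNHG12-202 holds 48% in A375 wells and SNHG12-207 47% in Jurkat wells, from means on which single wells weigh.

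Counts on the targets of the snoRNAs themselves were few. SNORD22 in SNHG1 had at least 1 count in 71 of 78 wells, with 1394 counts in all. SNORA24 in SNHG8 followed with 60 wells, SNORD26 in SNHG1 with 51 and SNORD12B in ZFAS1 with 49. SNORA9 in SNHG15 had counts in 1 and 8 of 21 A375 wells and in 8 and 15 of 18 Jurkat wells, for kits #634413 and #634444. SNORD99 in SNHG12 had counts in 19 and 15 A375 wells and in 7 and 5 Jurkat wells. SNORD50B in SNHG5 had 0 counts. A count on a short snoRNA target can also come from host RNA that spans it.

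Correlations between hosts across wells were mostly low. Over the 45 pairs of members, the median Spearman correlation of CPM in deeper wells was 0.20 in A375 and 0.07 in Jurkat with kit #634413, and 0.28 and 0.22 with kit #634444. The highest pairs were SNHG8 with SNHG29 at 0.86, SNHG5 with SNHG12 at 0.66, SNHG29 with GAS5 at 0.74 and SNHG5 with SNHG29 at 0.82, in that order of groups. These are descriptions over 16 to 18 wells that share library preparation and sequencing. The deeper A375 wells of kit #634413 include those with 4.84% and 10.5% of counts on protein coding genes. In these wells SNHG6, SNHG8 and ZFAS1 had 0 counts. Their weight in the correlations of that group was not tested. Outside the hosts, the gene whose level was most like their sum over 5721 genes was NPM1, a nucleolar chaperone of ribosome assembly. Its mean correlation over the 4 groups was 0.65, with 0.71, 0.72, 0.39 and 0.78 for A375 of kits #634413 and #634444 and Jurkat of kits #634413 and #634444. EBNA1BP2, a nucleolar factor of ribosome assembly, had 0.59, SET 0.57, CANX 0.56 and YBX1 0.55, beside a median of 0.11 over all these genes.

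Other genes of the snoRNA pathway were described by counts past 2-fold. Of 18 other noncoding hosts, 10 and 12 were fitted, with 4 higher and 1 lower in A375 with kit #634413 and 2 higher and 2 lower with kit #634444. Over all genes fitted 23.2% were higher and 25.2% lower with kit #634413, and 21.2% were higher and 25.9% lower with kit #634444, so these 5 of 10 and 4 of 12 lie near or below the 48.4% and 47.1% of all genes. Their median log2 fold change was 0.70 and 0.39, beside -0.13 and -0.22 over all genes. SNHG14, the host of the SNORD115 and SNORD116 clusters, was higher in A375 with log2 fold changes of 1.76 and 1.38. SNHG10 was lower with -1.02 and -2.20. Of 36 protein coding hosts, most of them ribosomal protein genes, 1 was higher with each kit and 2 and 3 were lower, with medians of -0.20 and -0.10. These counts are below the 48.4% and 47.1% of all genes past 2-fold. NCL, which encodes the nucleolar protein nucleolin, was lower with -1.26 and -1.35.

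Of 8 core proteins of the snoRNP particle, 0 were higher and 1 and 2 were lower in A375, where 25.2% and 25.9% of all genes were lower. Their medians were -0.52 and -0.72, beside -0.13 and -0.22 over all genes. NOP56, a box C/D core protein whose gene is itself a host, had -0.96 and -1.14. Of 10 assembly factors, 1 and 0 were higher and 3 and 3 were lower, near the same 25.2% and 25.9% of all genes, with medians of -0.64 and -0.82. SHQ1, an H/ACA assembly factor, had -1.82 and -2.37. Of 10 factors of nonsense-mediated decay, the pathway that degrades spliced host RNA, 0 were past 2-fold in either direction with either kit, with medians of -0.26 and -0.47 beside -0.13 and -0.22 over all genes.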

How the data were processed

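Single cell total RNA-seq of FACS sorted A375 and Jurkat cells was analysed in 78 wells, grouped by the cell line and kit of the labels. The authors quantified Ensembl v91 transcripts with Kallisto 0.43.1 in stranded mode and deposited estimated counts, which are not normalized, and TPM, which corrects them for effective length and depth. The submitters' notes also name STAR 2.5.3 and hg38. Sets of 8 samples were pooled during library preparation, and the pools are not named.

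Counts of 195850 of 200206 Ensembl transcripts were summed to genes with GENCODE v44, rounded and fitted per comparison with edgeR 4.0.16 (R 4.3.3, limma 3.58.1) after TMM, for genes reaching 5 counts in 25% or more of the wells. CPM were taken over all counts of a well. The planned edgeR quasi-likelihood and splicing tests are not reported, since the labels name no culture behind the cells and each group is then 1 sample. The wells' fit served for fold changes and for the rule that names list genes. A difference of 2-fold, or of 20 percentage points in retained intron share, was taken as the threshold, chosen with values known. Shares were computed for genes with at least 10 counts in a well, and compared for genes with this in at least 25% of wells and at least 5% of counts in each class. Deeper wells had at least 203425 counts, 25% of the median total. Intervals are 95% exact Poisson and Clopper-Pearson intervals.

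The text names the 10 members, the list genes that passed an adjusted p of 0.05 in the same direction with both kits (up to 3 a list) in the fit of single wells, which served for naming alone and supports no difference, and the 5 genes most like the members' sum. Other list genes given were chosen after their values were seen. The members and lists were chosen with earlier results of these data known. Alternatives were DESeq2 1.42.0 with poscounts size factors, library size alone, protein coding counts as library size, other filters, deeper wells, wells with at least 50% protein coding counts, limma on log2(TPM + 1), and counts summed over blocks of 8 index numbers. The TPM fit in deeper wells was added after seeing the data. The fits were tested on simulated data. Sequences were read from the GRCh38 genome at GENCODE v44 transcripts, and snoRNA positions came from GENCODE and RefSeq. Computations used Python 3.11.15, numpy 2.4.6, pandas 2.3.3, scipy 1.17.1 and matplotlib 3.10.9.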

Additional observations from a re-analysis of the deposited data

How the results depend on the processing

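SNHG15 stayed past 2-fold between the lines under all 10 alternatives with both kits. GAS5 did too, except for a log2 fold change of 0.83 with kit #634444 under limma on log2(TPM + 1) over all wells. SNHG6 did except where it had 0.93 under DESeq2 and 0.51 under limma on TPM with kit #634413, and 0.22 under limma on TPM with kit #634444. In the order of the A375 against Jurkat comparisons for kits #634413 and #634444, the kit comparisons in A375 and Jurkat, and the interaction, genes past 2-fold numbered 12773, 14055, 7447, 6219 and 13017 with no filter beyond 1 count in 3 wells. They numbered 1957, 2177, 225, 372 and 740 with at least 10 counts in 50% of wells, and 11445, 11970, 5868, 5066 and 9825 with counts summed over blocks. The 2 filters change the number of genes fitted. Between kits in A375, limma on TPM gave 672 genes over all wells and 1911 in deeper wells. The cause of the other changes was not tested.

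Members past 2-fold between kits in A375, 1 in the fit reported, were 2 with protein coding counts as library size, 3 with limma on TPM in deeper wells, and 0 with limma on TPM, in wells with at least 50% protein coding counts and in blocks. Between kits in Jurkat they were 0, and 4 with limma on TPM, in all and in deeper wells. In the interaction they were 1, and 2 with limma on TPM in either set of wells and 0 in wells with at least 50% protein coding counts and in blocks. The share of all genes past 2-fold in the same alternative is not given beside these counts. They therefore do not set the members apart from other genes. With transcripts whose exon holds a snoRNA in place of retained intron transcripts, 6 and 4 genes were past 20 points between the lines and 2 and 3 between the kits in A375 and Jurkat, since far fewer genes have such transcripts. Of the members 1 was past it between kits in A375 and 0 in Jurkat. In blocks the genes numbered 1335 and 972 between the lines and 918 between kits in A375, and 0 members were past it between kits in Jurkat. With at least 20 counts per gene 288 genes were past it between kits in A375.

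Genes higher in A375 were 44.9% of those past 2-fold with kit #634444, and 57.0% with protein coding counts as library size. Between kits in A375, 45.2% were higher with kit #634444, and 57.2% with DESeq2 and 76% with library size alone. In the interaction 39.5% were above 0, and 53.5% with library size alone. Permutation alternatives of retained intron use were not run, since no test is given. No paired analysis was possible because the labels give no replicate numbers. Depth limits the shares of SNHG12 and SNHG15, for which 7 of 18 Jurkat wells of kit #634413 and 7 of 21 A375 wells of kit #634444 had at least 10 counts.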
